A study of Homo sapiens with 72 samples.

Results

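The RNA of G3BP1/2 knockout cells that had received a G3BP1 transgene without its NTF2-like domain was compared with the RNA of the same knockout cells left untransfected, both without stress. The comparison holds 4 of the 72 sequencing libraries of the series, and its rows are all 61541 Ensembl gene IDs of 1 table, of which 20911 were tested. Both groups were U2OS cells, a human osteosarcoma line, and both carried the G3BP1/2 knockout. The rescue group (2 libraries, labelled G3BP_KO_NTF2-rescue) had been transfected with Lipofectamine 24 h earlier with the NTF2-deletion mutant of G3BP1. The knockout group (2 libraries, labelled G3BP_KO) had no treatment. The expression was transient, and the promoter of the transgene and the number of knockout clones are not given in the sources used here. No mock-transfected group was analysed here, so the transgene and the transfection cannot be told apart in any value of this comparison. A second rescue with the full-length protein (labelled G3BP_KO_WT-rescue, 2 libraries, same cells, reagent and time) was set beside it, as was a first experiment with its own knockout and G3BP1 rescue libraries (2 each, also 24 h after transfection).

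G3BP1 and its paralogue G3BP2 are RNA-binding proteins that nucleate stress granules, the cytoplasmic assemblies of stalled messenger ribonucleoproteins that form when translation initiation is blocked. The N-terminal NTF2-like domain makes the protein dimerise and binds partners such as Caprin-1 and USP10, and the C-terminal part binds RNA. A G3BP1 without the NTF2-like domain therefore keeps its RNA-binding part and lacks its dimerisation part, and cells without both paralogues do not form granules after arsenite. The question was which transcripts differ when this mutant, rather than no G3BP, is present in unstressed cells.

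Reads assigned to genes ran from 10.8 to 15.6 M (1e6) per library, and from 26336 to 26932 genes had a read. Whole reads of every library were recovered from the base means of 7 deposited tables, and are given below divided by the library's size factor, as normalised reads. The 2 libraries of a group differed by a median of 0.0950 on the log2 scale in the knockout and 0.0885 in the rescue over genes with a base mean of 100 or more. Unmapped reads made up 6.54% and 6.45% in the knockout and 10.5% and 10.03% in the rescue, and reads outside annotated features 28.03% and 25.8% against 19.9% and 21.1%. Their part in the results was not tested. Of the osteoblast markers, 5 of 9 had at least 10 normalised reads in every library, and SP7 was at 0 in all 4. The osteoblast list summed to 30075 to 30596 normalised reads in the knockout and to 12729 to 13329 in the rescue. SPARC and COL1A1 made up most of that sum, and ALPL went the other way (0.64, called). Mesenchymal markers passed that level for 8 of 9 genes and summed to 24886 to 25032 and to 35290 to 36977. VIM and CD44 made up most of that sum, and VIM, CD44, ZEB1 and ENG were called higher while CDH2, FN1, S100A4 and THY1 were called lower. Epithelial markers passed it for 4 of 9, with KRT19 and CLDN3 at 0. Leukocyte markers passed it for 1 of 7, with CD3E, LYZ and TYROBP among those at 0. The labels do not say that libraries came from separate cultures, so p-values measure the spread between these libraries, which may be technical.

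G3BP1 drew more reads than any other gene in the rescue cells. G3BP1 (ENSG00000145907) had 3429 and 3485 normalised reads in the knockout libraries and 768806 and 730498 in the rescue libraries, 217 times as many. It took 5.32% and 5.16% of all gene reads in the rescue and 0.0290% and 0.0292% in the knockout. Both rescue libraries stood far above both knockout libraries, and the reads cannot tell the transgene from the endogenous locus. The knockout libraries still held G3BP1 and G3BP2 messages. G3BP2 (ENSG00000138757) rose from 1507 and 1489.6 to 2196 and 2265 normalised reads, a centred log2 fold change of 0.41 ± 0.08 (SE, 2 libraries a group). Centred means here that 0.17, the median over the 10808 genes with a base mean of 100 or more, was subtracted from the fold change of the authors' deposited table. Folds given as times or fold are ratios of mean normalised reads and are not centred. G3BP1P1, a processed pseudogene of G3BP1, rose from 17.6 and 14.4 to 1138 and 1160.3. It shares sequence with the transgene, and its reads are therefore uncertain. For every 1000 G3BP1 reads there were 5.14 and 4.13 G3BP1P1 reads in the knockout, 1.48 and 1.59 in the NTF2-deletion rescue and 0.318 and 0.299 in the wild-type rescue.

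Of 20911 genes tested, 8652 (41.4%) were called at an adjusted p under 0.05 after centring, 3575 higher in the rescue (17.1%) and 5077 lower (24.3%). Without centring, the authors' deposited table called 4764 higher (22.8% of those tested) and 3918 lower (18.7%). Centring on the median of genes with a base mean of 1000 or more gave 2798 higher and 6317 lower. The choice of centre thus moved the split, and calls and centred changes below are relative to the median gene. No gene called in both ways had opposite directions. A change of at least 1 on the centred log2 scale was seen in 899 of the higher and 2846 of the lower genes, and one of at least 3 in 50 and 204. In 8559 of the 8652 called genes both rescue libraries lay on one side of both knockout libraries. The calls rest on the same reads, so this separation follows largely from the calls and is no check on them. The share over all tested genes is not given here. The deposited fold changes are shrunk toward 0, so large changes of weakly expressed genes are understated. Protein-coding genes made up 97.5% of the higher and 94.0% of the lower genes with a base mean of 100 or more, against 95.5% of those tested. Median gene length was 27.9 kb for the higher and 39.3 kb for the lower genes, against 32.8 kb for all.

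**Figure D1:**
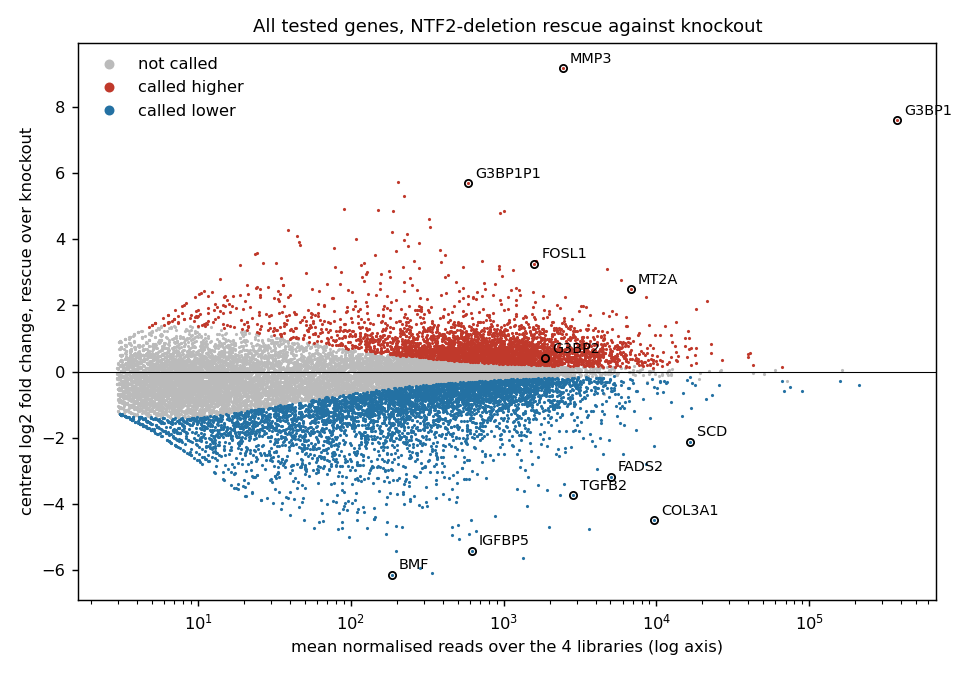
Centred log2 fold change of each tested gene (NTF2-deletion rescue over knockout, vertical axis) against its mean normalised reads over the 4 libraries (log axis), with 3575 genes called higher in red, 5077 called lower in blue and the rest in grey. G3BP1 and MMP3 lie above all other genes, and BMF, IGFBP5 and COL3A1 are among the lowest.

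Several genes were nearly silent on one side of the comparison. MMP3, the secreted protease stromelysin 1, had 3.91 and 1.11 normalised reads in the knockout libraries and 4809 and 4950.1 in the rescue libraries (centred log2 fold change 9.17 ± 0.35). MYCT1 went from 2.94 and 3.32 to 405 and 406, and G0S2, an inhibitor of the lipase ATGL, from 6.85 and 5.53 to 413 and 467. EPHB1, a receptor tyrosine kinase for ephrin-B ligands, went from 5.87 and 4.43 to 301 and 290.3. In all of these the rescue libraries agreed closely with each other. None overlapped the knockout, which follows from picking the largest changes. CD22, a lectin known from B cells, rose from 5.87 and 9.96 to 404 and 341, and SP140, a nuclear body protein known from leukocytes, from 11.7 and 26.6 to 609.5 and 642, while the leukocyte markers summed to 148 to 151 normalised reads in the knockout and 44.7 to 48.2 in the rescue. MARCHF4, a membrane-bound ubiquitin ligase, rose from 59.7 and 52.01 to 2031 and 1879.8 and ESM1, an endothelial proteoglycan, from 50.9 and 59.8 to 1841 and 1814.

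At the other end, BMF, a BH3-only protein that promotes apoptosis, fell from 363 and 372 normalised reads to 3.71 and 0.971. SLC2A12, a glucose transporter, fell from 709.5 and 627 to 8.35 and 6.80, LRRC17 from 589 and 527 to 2.78 and 10.7 and ABCG1, a cholesterol exporter, from 421 and 359.7 to 8.35 and 4.85. These genes were well expressed in both knockout libraries and close to absent in both rescue libraries. LDLRAD4, which restrains TGF-beta signalling by binding SMAD proteins, fell from 2602 and 2666 to 51.02 and 62.1 and IGFBP5, a carrier of insulin-like growth factors, from 1249.7 and 1171 to 30.6 and 26.2. CDKN2B, the CDK4 and CDK6 inhibitor p15, fell from 339.6 and 326 to 12.99 and 4.85. The remaining 3 of the 10 lowest genes were TMEM255A, IGSF10 and LINC02615, with centred log2 fold changes of -5.06, -4.94 and -4.91.

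**Figure D2:**
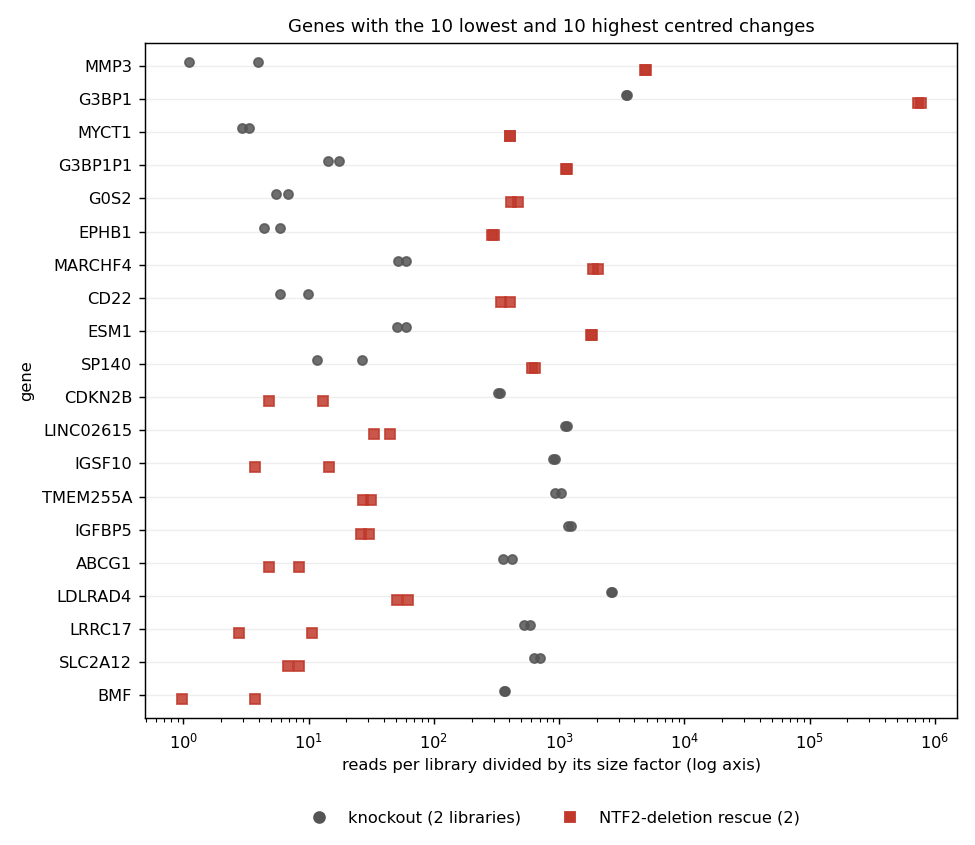
Normalised reads (log axis) in the 2 knockout libraries (grey circles) and the 2 NTF2-deletion rescue libraries (red squares) for the 10 called genes with the highest and the 10 with the lowest centred change among those with a base mean of 100 or more. In each of the 20 genes the groups are separated by more than the distance between the 2 libraries of a group, which follows from picking the largest changes.

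To see which programs these genes belong to, 31 gene lists were read. All tested genes had a median of -0.19 on the centred log2 scale, with 17.1% called higher and 24.3% lower. Most members of most lists had a base mean of 100 or more. Of the 10808 tested genes at that level, 3302 were higher and 3352 lower, with a median of 0 by construction. Well-expressed lists are to be read against these counts. The lists were chosen with earlier results of these data known, so a list's direction is a description of its members.

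**Figure D3:**
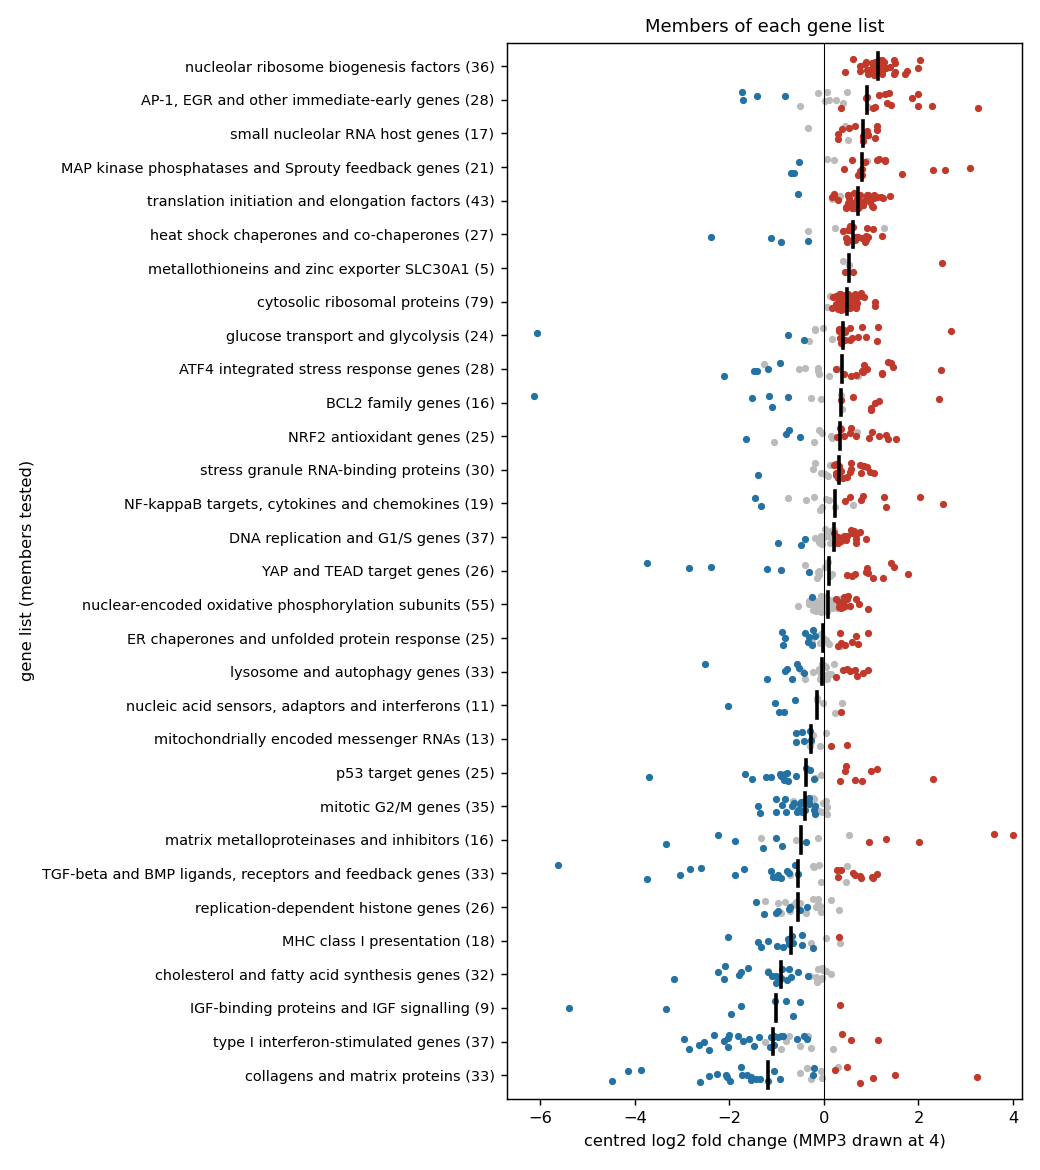
Centred log2 fold change of each tested member of the 31 gene lists, with red for called higher, blue for called lower, grey for not called, and a black bar at the list's median. Lists run from collagens and matrix proteins (median -1.18) at the bottom to nucleolar ribosome biogenesis factors (1.15) at the top, and MMP3 is drawn at 4.

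The machinery that makes ribosomes and proteins was higher in the rescue cells. All 36 of 36 nucleolar ribosome biogenesis factors tested were called higher, with a median centred log2 fold change of 1.15 and a range from 0.44 to 2.04. RRP9, a protein of the U3 small nucleolar ribonucleoprotein, rose from 352 and 322 to 1651 and 1505 normalised reads. RRP12, needed for export of ribosomal subunits, rose from 1124 and 1203 to 5368 and 5088, LYAR, a nucleolar growth regulator, from 263 and 239 to 934 and 1011 and BOP1, which processes the large-subunit RNA, from 1454 and 1676 to 6025 and 5563. In these 4 genes, picked for their large changes, every rescue library was above every knockout library, and nearly all called genes were separated in this way. POLR1A, the largest subunit of RNA polymerase I, stood at 0.44, the nucleolar proteins NCL and NPM1 at 1.02 and 1.11, and the methyltransferase FBL at 1.06.

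Of 43 translation factors, 40 were called higher and 1 lower (EIF4G3, -0.55), with a median of 0.73. The termination factors ETF1 and GSPT1 rose from 768 and 916 to 2388 and 2594 and from 1881 and 1984 to 5051 and 5242 normalised reads. The largest changes also included EIF2B3, a subunit of the exchange factor that recharges eIF2 (1.21), and EIF3B of the eIF3 scaffold (1.12), and EIF4E, the cap-binding protein, stood at 0.65. Of 79 cytosolic ribosomal protein genes, 76 were called higher and 0 lower, with a median of 0.48 beside 1.15 for the biogenesis factors. RPL4 went from 8844 and 9145 to 17867 and 16705. RPL17 and RPL26, among the largest changes of that list at 1.07 and 0.84, have many processed copies in the genome, so their reads are uncertain. Of 17 small nucleolar RNA host genes, 14 were called higher and 0 lower (median 0.82), with SNHG17 and SNHG4 at 1.13 and 1.12 and GAS5 at 0.91.

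The letters CACGTG, an E-box that MYC with MAX can bind, were looked for in the 300 bases from 250 before to 50 after the RefSeq start of each gene (GRCh38.p14; the letters read the same on both strands). They occur in 15 of the 29 ribosome biogenesis genes with a promoter in that table (51.7%), against 7.26% of all 35116 promoters and 12% of tested genes. Among called genes they occur in 16.1% of those higher and 10.1% of those lower. The promoters of RRP9 (chr3:51941855-51942154, minus strand) and LYAR (chr4:4289972-4290271, minus strand, the first of its 2 listed starts with a match) are shown as examples with a match among the 4 largest changes of the list. Those of RRP12 and BOP1 are not shown. Capitals mark the E-box, which spans the start site in RRP9 and lies 64 to 59 bases before it in LYAR.
RRP9: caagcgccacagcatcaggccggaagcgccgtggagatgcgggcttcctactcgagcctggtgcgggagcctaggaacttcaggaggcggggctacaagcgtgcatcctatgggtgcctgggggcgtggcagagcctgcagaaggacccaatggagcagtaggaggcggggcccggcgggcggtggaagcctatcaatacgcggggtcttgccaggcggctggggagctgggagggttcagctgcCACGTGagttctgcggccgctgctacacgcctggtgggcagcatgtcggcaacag
LYAR: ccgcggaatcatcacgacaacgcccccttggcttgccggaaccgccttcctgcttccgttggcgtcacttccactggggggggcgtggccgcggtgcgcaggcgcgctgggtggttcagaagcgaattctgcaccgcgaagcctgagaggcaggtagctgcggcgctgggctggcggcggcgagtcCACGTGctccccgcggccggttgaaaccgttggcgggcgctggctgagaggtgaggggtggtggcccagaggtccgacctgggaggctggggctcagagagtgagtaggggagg

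Immediate-early genes, which growth factors and stress induce within minutes, were raised for the most part. Of 28 tested, 15 were called higher and 4 lower, with a median of 0.90. FOSL1, an AP-1 subunit, rose 10.9-fold, from 268 and 262 to 2961 and 2844 normalised reads. MYC, the transcription factor that drives growth genes, rose from 1249.7 and 1185 to 5509 and 5359.8, JUN, another AP-1 subunit, from 738 and 707 to 2997 and 2931 and ARC from 215 and 221 to 1256 and 1188. All 4 were separated from the knockout in both libraries, as nearly all called genes were. The 4 genes that fell were EGR2 (-1.74), the AP-1 subunit JUND (-1.70), the antiproliferative gene BTG2 (-1.42) and IER3 (-0.83). FOS stood at 0.49 and JUNB at -0.12, neither called.

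Genes that report and restrain ERK signalling moved the same way in most cases, with 15 of 21 called higher, 3 lower and a median of 0.81. DUSP5, a nuclear ERK phosphatase, rose from 151 and 194 to 1720.0 and 1644 normalised reads, and ETV4, an ETS factor downstream of ERK, from 289.7 and 225 to 1444 and 1469. The cytoplasmic ERK phosphatases DUSP6 and DUSP7 stood at 1.28 and 1.65, the receptor inhibitors SPRY4 and SPRY2 at 1.29 and 0.75 and the EGF receptor ligand AREG at 2.55. DUSP8 and DUSP16, which act on JNK and p38, were lower at -0.63 and -0.70, as was PHLDA1 at -0.52. Of 19 NF-kappaB targets, cytokines and chemokines, 8 were higher and 2 lower (median 0.23). TRAF1 stood at 1.32 and the feedback inhibitor TNFAIP3 at 0.77, while VCAM1 and CCL2 fell, with -1.46 and -1.34. CCL20 and CSF2 stood at 2.52 ± 0.54 and 2.02 ± 0.58, on few reads (6 and 4 in the knockout, 94 and 57 in the rescue). VCAM1 also had few, 38 in the knockout and 10 in the rescue. NFKBIA, the inhibitor most directly induced by NF-kappaB, was not called (0.23).

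Interferon-stimulated genes, which encode antiviral effectors induced by interferon signalling, were lower in the rescue cells. Of 37 tested of 44 listed, 26 were called lower and 3 higher, with a median of -1.07. PARP9, an ADP-ribosyltransferase family member, fell from 900.4 and 874 to 254 and 223 normalised reads, DDX60, a helicase, from 206 and 187 to 51.02 and 49.5, IFI6 from 235 and 253 to 64.01 and 64.1 and UBE2L6, the conjugating enzyme for ISG15, from 399 and 385 to 121 and 120.4. The rescue libraries were below the knockout libraries in all 4, and nearly all called genes were separated by group. More weakly expressed members with larger changes were TRIM22 (-2.96), IFIT1 (-2.85), BST2 (-2.65) and OAS1 (-1.70). Among the factors that drive the program, STAT2 stood at -1.13, called, and IRF9 at -0.74, not called. The members called higher were ISG20 (1.13), IFIT5 (0.58) and PLSCR1 (0.39).

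Antigen presentation by MHC class I moved with them, with 14 of 18 genes lower, 1 higher (HLA-E, 0.31) and a median of -0.71. Without centring, 9 were lower and 1 higher (median -0.54). PSMB9, a catalytic subunit of the immunoproteasome, fell from 204 and 251 to 63.1 and 53.4 normalised reads, TAP1, a subunit of the peptide transporter, from 1090.2 and 1123 to 469 and 474 and the transactivator NLRC5 from 335 and 334 to 146 and 147. HLA-B and HLA-C stood at -0.47 and -0.67 and B2M, their light chain, at -0.66. HLA genes are alike in sequence, so the division of reads among them is uncertain. Of 11 sensors and adaptors tested of 20 listed, 5 were lower and 1 higher (median -0.15, and 0.01 without centring). The RNA-sensing adaptor MAVS fell from 1919 and 1763 to 1052 and 960.3, the DNA-sensing adaptor STING1 from 137 and 139 to 77.00 and 77.7, and IFI16 rose (0.37, adjusted p 0.0175), a call lost with the centre from genes of base mean 1000 or more. The RNA sensors RIGI and IFIH1, counted with the interferon genes, stood at -1.13 and -1.07. IFNB1, IFNL1, IFNL2 and IFNL3 were among the 9 listed genes that were not tested.

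The letters GAAANNGAAA, the core of the interferon-stimulated response element, were looked for on both strands of the same 300 bases. They occur in 24 of 34 listed interferon genes with a promoter (70.6%) and in 11 of 15 MHC class I genes (73.3%), against 3.57% of all promoters and 3.94% of tested genes. Within the interferon list they occur in 15 of 22 genes called lower, 3 of 5 not called and 3 of 3 called higher. Among all called genes they occur in 3.78% of those higher and 4.54% of those lower. The promoters of IFI6 (chr1:27672143-27672442, minus strand), PARP9 (chr3:122564251-122564550, minus strand) and TAP1 (chr6:32853655-32853954, minus strand) are shown as 3 named genes that fell. For PARP9 and TAP1 the first of 2 listed starts with a match was taken. PARP9 and DTX3L start 38 bases apart on opposite strands, and DTX3L fell as well (-0.91). TAP1 and PSMB9 start 488 bases apart on opposite strands. Capitals mark the matches, of which IFI6 has 3, PARP9 1 and TAP1 2 that overlap.
IFI6: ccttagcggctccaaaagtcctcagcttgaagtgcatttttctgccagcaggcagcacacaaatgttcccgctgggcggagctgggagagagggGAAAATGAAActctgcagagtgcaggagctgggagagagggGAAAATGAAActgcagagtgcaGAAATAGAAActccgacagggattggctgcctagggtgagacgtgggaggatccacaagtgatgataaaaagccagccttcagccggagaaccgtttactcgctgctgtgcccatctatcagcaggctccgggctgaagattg
PARP9: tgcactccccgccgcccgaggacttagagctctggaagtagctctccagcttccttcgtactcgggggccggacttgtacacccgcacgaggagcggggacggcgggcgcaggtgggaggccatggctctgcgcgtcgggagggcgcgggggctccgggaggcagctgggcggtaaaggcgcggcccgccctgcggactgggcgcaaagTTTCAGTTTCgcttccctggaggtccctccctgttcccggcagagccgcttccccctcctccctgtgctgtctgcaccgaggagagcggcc
TAP1: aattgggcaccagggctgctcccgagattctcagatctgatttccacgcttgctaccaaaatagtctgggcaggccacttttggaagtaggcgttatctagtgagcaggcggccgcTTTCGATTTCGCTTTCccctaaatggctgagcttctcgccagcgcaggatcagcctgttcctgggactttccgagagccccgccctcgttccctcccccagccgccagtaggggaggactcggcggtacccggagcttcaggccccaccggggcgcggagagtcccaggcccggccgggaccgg

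Chaperone genes were higher in the rescue cells, which had no arsenite but, unlike the knockout cells, had been transfected. Of 27 tested, 20 were called higher and 4 lower, with a median of 0.61. HSPA8, the constitutive cytosolic HSP70, rose from 8522 and 9121 to 24124 and 22503 normalised reads and HSPD1, the mitochondrial HSP60, from 9387 and 9363 to 21417 and 21518. The stress-inducible HSPA1A and HSPA1B stood at 0.48 and 0.50 and share most of their sequence, so their reads are uncertain. HSP90AA1 stood at 0.71, BAG3 at 0.93 and HSPA6 at 1.26, the last not called. The small heat shock proteins CRYAB and HSPB1 fell, CRYAB from 372 and 425 to 79.8 and 83.5 and HSPB1 with -0.91, and DNAJB4 and DNAJB2 were also lower.

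The letters GAANNTTCNNGAA, a form of the heat shock element, occur in either direction in 8 of 25 chaperone genes with a promoter (32.0%), against 0.490% of all promoters and 0.516% of tested genes, and in 7 of the 18 called higher. Among all called genes they occur in 0.635% of those higher and 0.480% of those lower. A gene with several listed starts counts in these shares if any of them has a match. The promoters of HSPA8 (chr11:123062087-123062386, minus strand) and HSPD1 (chr2:197499791-197500090, minus strand, the first of its 2 listed starts with a match) are shown as those of the 2 largest rises among called members with a base mean of 100 or more. HSPD1 and HSPE1, its co-chaperone, start 105 bases apart on opposite strands, and HSPE1 rose as well (0.68). Capitals mark the matches, 2 in each promoter, which overlap in HSPD1.
HSPA8: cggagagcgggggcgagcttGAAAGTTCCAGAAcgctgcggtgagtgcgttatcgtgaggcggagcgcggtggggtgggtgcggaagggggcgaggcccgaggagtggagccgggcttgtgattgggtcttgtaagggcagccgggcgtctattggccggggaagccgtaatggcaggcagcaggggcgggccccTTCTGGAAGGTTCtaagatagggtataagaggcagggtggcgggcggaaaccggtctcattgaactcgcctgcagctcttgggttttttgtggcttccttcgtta
HSPD1: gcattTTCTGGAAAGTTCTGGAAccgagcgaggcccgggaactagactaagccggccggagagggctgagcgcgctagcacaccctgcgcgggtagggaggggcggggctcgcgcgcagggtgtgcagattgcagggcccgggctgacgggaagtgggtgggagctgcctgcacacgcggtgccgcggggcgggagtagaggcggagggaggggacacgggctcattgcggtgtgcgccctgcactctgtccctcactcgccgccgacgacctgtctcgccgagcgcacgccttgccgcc

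Other stress programs were mixed. Of 28 targets of ATF4, the factor of the integrated stress response, 14 were higher and 5 lower (median 0.37). PPP1R15A, the eIF2 phosphatase subunit GADD34, rose from 318 and 294 to 1943 and 1938 normalised reads and DDIT3, the factor CHOP, from 78.3 and 80.8 to 265 and 248, while DDIT4, an inhibitor of mTORC1, fell from 169 and 232 to 84.4 and 68.9 and VLDLR from 592 and 585 to 151 and 147. ASNS, the asparagine synthetase often used as its reporter, was not called (-0.10). Of 25 NRF2 genes, 13 were higher and 4 lower (median 0.34), with heme oxygenase HMOX1 up from 178 and 157 to 510.2 and 474 and thioredoxin reductase TXNRD1 from 1668 and 1711 to 3909 and 3771, and NQO1 not called (-0.04). MT2A, a metallothionein that binds zinc and copper, rose 6.37-fold, from 1802 and 1895 to 12415 and 11115, and 3 of 5 genes of that list were higher (median 0.54). Of 25 genes of the endoplasmic reticulum and the unfolded protein response, 8 were higher and 9 lower (median -0.02, and 0.15 without centring). The chaperone HSPA5 and the sensor ERN1 stood at 0.71 and 0.94 and the sensor EIF2AK3 at -0.90.

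Messages for the proteins that gather in stress granules were modestly higher, 23 of 30 called higher and 1 lower, with a median of 0.32. TIA1, a granule protein with RNA-recognition motifs, was the one that fell, from 1600.1 and 1414 to 621 and 654 normalised reads, while its paralogue TIAL1 stood at 0.26. CNBP rose from 2068 and 2136 to 4903 and 4949 and the poly(A)-binding protein PABPC4 from 2805 and 2829.8 to 6289 and 6136. Of the proteins that bind the NTF2-like domain, CAPRIN1 stood at 0.33 and USP10 at 0.78, both called.

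Genes for the extracellular matrix were lower. Of 33 tested, 21 were called lower and 6 higher, with a median of -1.18. COL3A1, a fibrillar collagen, fell 20.2-fold, from 18182 and 18722 to 908 and 921 normalised reads. COL4A5, a basement membrane collagen, fell from 218 and 185 to 12.99 and 10.7, and the proteoglycan LUM from 439 and 488 to 84.4 and 75.7. POSTN, SPARC and FN1 stood at -4.15, -1.34 and -1.06 and COL1A1 at -1.62. The transmembrane collagen COL13A1 went the other way, from 14.7 and 18.8 to 229 and 205, and THBS1 and COL6A3 were also higher (1.51 and 1.04). COL1A1 and SPARC are also osteoblast markers, whose summed level was lower in the rescue as given above. In these bulk libraries fewer cells of a kind and less RNA per cell cannot be told apart.

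Proteases that degrade matrix moved both ways. The secreted collagenase MMP1 had no read in either knockout library and 43.6 and 53.4 normalised reads in the rescue, at least 31.1-fold higher when 3 reads over both knockout libraries are taken as the floor. The gelatinase MMP9 rose from 852 and 755 to 3763 and 3570.3, and MMP3 is described above. The membrane-bound MMP24 fell from 407 and 460.4 to 29.7 and 57.3, MMP14 and MMP15, also membrane-bound, stood at -1.30 and -1.88, and MMP2 at -1.02. Of the inhibitors, TIMP2 fell from 3117 and 3121 to 735 and 732 and TIMP1 rose (0.96). Over the list 5 of 16 were higher and 7 lower (median -0.48).

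Growth factor systems that act through the matrix also moved. Of 9 tested genes of insulin-like growth factor signalling, 8 were lower and 1 higher (IGF2R, 0.34), with a median of -1.02. IGFBP4 fell from 367 and 408 to 110.4 and 103 normalised reads, IGFBP7 and IGF2 stood at -3.34 and -1.74, and the receptor IGF1R went from 6594 and 6504 to 4797 and 4499. Of 33 TGF-beta and BMP genes, 16 were lower and 10 higher (median -0.54). Among ligands, TGFB2 fell 11.99-fold, from 5253 and 5226 to 428 and 447, TGFB3 from 595 and 567 to 77.00 and 73.8 and BMP4 stood at -2.60, while TGFB1 and BMP2 were higher (0.28 and 1.04). Among receptors, TGFBR1 and BMPR2 were lower (-1.12 and -1.88) and TGFBR2 higher (0.37). Among inhibitory SMADs, SMAD6 fell from 642 and 765 to 109 and 104 and SMAD7 rose (0.77). The BMP targets ID1 and ID3 were higher, at 0.62 and 1.12.

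Of 26 YAP and TEAD targets, 11 were higher and 6 lower (median 0.11, less than the 0.14 by which the centre from genes of base mean 1000 or more would lower it). ANKRD1, a standard reporter of YAP activity, rose from 1880.0 and 1830.5 to 7059.9 and 7169 normalised reads, and CCN1 and CCN2 stood at 1.41 and 0.91. TEAD2 fell from 1233 and 1145 to 251 and 252 and TEAD4 rose (0.67), while YAP1 was not called (-0.10).

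Most genes of lipid synthesis were lower. Of 32 genes of cholesterol and fatty acid synthesis, 21 were called lower and 0 higher, with a median of -0.91. FADS2, a fatty acid desaturase, fell from 8748 and 9089 to 1153 and 1046 normalised reads, and SCD, another desaturase, from 26253 and 26630.1 to 7051 and 6658. INSIG1, which holds the sterol sensor in the endoplasmic reticulum, fell from 549 and 544 to 125 and 126. The master regulators SREBF1 and SREBF2 stood at -1.79 and -1.60, both called. FASN, HMGCS1 and FDPS were not called (-0.13, -0.04 and -0.15). Glycolytic genes were higher in 16 of 24 cases and lower in 3 (median 0.40). HK2, a hexokinase, rose 7.40-fold, from 183 and 174 to 1371 and 1270.0, and the phosphofructokinase PFKP from 442 and 532 to 1229 and 1211.

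Cell-cycle genes divided by phase. Of 35 mitotic genes, 25 were lower and 0 higher (median -0.40), and of 37 replication genes, 18 were higher and 3 lower (median 0.21). Without centring, 16 mitotic genes were lower and 2 higher (median -0.24), and 25 replication genes were higher and 3 lower (median 0.38). KIF20A, a kinesin of cytokinesis, fell from 1437 and 1409.9 to 638 and 559 normalised reads, CDC25C, the phosphatase that activates CDK1, from 266 and 262 to 118 and 109 and TOP2A from 5069 and 5041 to 2757 and 2879.9. CDC6 and MCM10, which load and start the replicative helicase, rose from 644 and 664 to 1192 and 1182 and from 533 and 536 to 1046 and 1002.

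Of 25 p53 targets, 15 were lower and 8 higher (median -0.38), and without centring 12 were lower and 8 higher (median -0.21). TP53INP1, a stress-induced cofactor of p53, fell from 783 and 710.5 to 56.6 and 65.1 normalised reads and DDB2, a DNA damage sensor, from 991 and 956 to 353 and 325, while GADD45A rose from 396 and 378 to 2126 and 2221. CDKN1A and MDM2, the best known of the targets, moved little, at 0.35 and -0.21, both called, with overlapping libraries in MDM2. Among BCL2 family genes, 7 of 16 were higher and 5 lower (median 0.35). Besides BMF, the death-promoting BH3-only genes BBC3 and BCL2L11 fell, from 294 and 309.9 to 112 and 117 and from 673 and 681 to 328 and 347, while PMAIP1 rose (1.00). The protective BCL2A1, BCL2 and BCL2L1 were higher (2.44, 1.00 and 0.62), and so was the pore-forming BAK1, which rose from 361 and 422 to 996 and 985.

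What differed with the missing domain was asked by setting the NTF2-deletion rescue against the wild-type rescue. The difference of their fold changes was tested with the squared errors of both tables summed. Both tables hold the same knockout libraries, whose error is then counted in each, so that error is too large and the test too strict. Of 16210 genes tested, 3 passed (0.0185%): G3BP1 (0.45), G3BP1P1 (2.77) and RHPN2P1 (3.56, with reads near 0 in both rescues). At an unadjusted p under 0.05 there were 113. The small number is therefore no measure of how alike the rescues are. A direct fit with limma to the recovered reads of the 4 rescue libraries, with no knockout library in it, called 377 of 15865 genes (2.38%), 132 higher (0.832%) and 245 lower (1.54%) in the NTF2-deletion rescue. The median size of those 377 differences was 0.26 on the log2 scale, and 15 reached 1. That fit scaled and centred the rescue libraries anew, so its differences are not exact ratios of the normalised reads given below. Leaving out a wild-type rescue library brought the 377 down to 64 or 50, and leaving out an NTF2-deletion library brought it to 450 or 688, so the number rests on which libraries are used. In the fit of all libraries and in each fit without 1 of them, 29 genes were called, 3 higher and 26 lower in the NTF2-deletion rescue.

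G3BP1 itself was higher with the mutant, 768806 and 730498 normalised reads against 550009 and 522875 with the wild type (limma difference 0.44 ± 0.03, adjusted p 1.07e-33). The G3BP1 message was thus not equal between the rescues, and its part in the other differences was not tested. Of the 26 genes that were lower with the mutant, 19 had both mutant libraries above both knockout libraries and below both wild-type libraries. HMOX1 had 178 and 157 normalised reads in the knockout, 510.2 and 474 with the mutant and 902 and 863 with the wild type (limma difference -0.89 ± 0.08, adjusted p 2.04e-27). MMP3 had 4809 and 4950.1 with the mutant and 8083 and 7747 with the wild type (-0.74 ± 0.04), and MMP1 43.6 and 53.4 and 140.4 and 113 (-1.42 ± 0.20). ATF3, a stress-induced transcription factor, had 185 and 217, 497 and 465 and 687 and 629.6 in the 3 groups, KLF6 649.8 and 639, 1689 and 1590.5 and 2069 and 2140.2, and ANKRD1 1880.0 and 1830.5, 7059.9 and 7169 and 8383 and 8481. All 6 genes belong to the 19.

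Other members of the 26 had a different order. DDIT4 was lowest with the mutant, 84.4 and 68.9 normalised reads against 169 and 232 in the knockout and 141 and 169 in the wild-type rescue. SPP1, the matrix protein osteopontin, was likewise lowest with the mutant (389.6 and 341, against 689 and 619.7 and 487 and 545), as was the nuclear RNA NEAT1 (4042 and 4333, against 7775 and 6739 and 5255 and 5319). CITED2 had 670.4 and 701 in the knockout, 690.2 and 691 with the mutant and 904 and 881 with the wild type, with the mutant and knockout libraries overlapping. Besides G3BP1 and G3BP1P1, PTPN14, a phosphatase that binds YAP, was higher with the mutant (3600.5 and 3553 against 2818 and 2882, and 3438 and 3590.1 in the knockout).

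By list, the limma fit of the 2 rescues called 9 of 26 immediate-early genes lower with the mutant and 0 higher (median difference -0.12), and 4 of 16 NF-kappaB genes and 4 of 27 ATF4 genes lower and 0 higher. Over all 15865 genes that fit called 1.54% lower and 0.832% higher. It called 11 of 79 ribosomal protein genes higher and 0 lower (median 0.09), 5 of 35 mitotic genes higher and 0 lower (median 0.11), and 1 of 30 interferon genes higher and 0 lower (median 0.13). Over the fits without 1 library each, the counts ran from 4 to 9 for immediate-early, 2 to 4 for NF-kappaB and 2 to 5 for ATF4 genes lower, and from 0 to 28 for ribosomal protein, 0 to 7 for mitotic and 0 to 1 for interferon genes higher, so these counts rest on which libraries are used. In the same lists the change from the knockout had medians of 0.90, 0.48 and -1.07 with the mutant, and of 0.74, 0.38 and -1.28 with the wild type, for immediate-early, ribosomal protein and interferon genes.

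**Figure D4:**
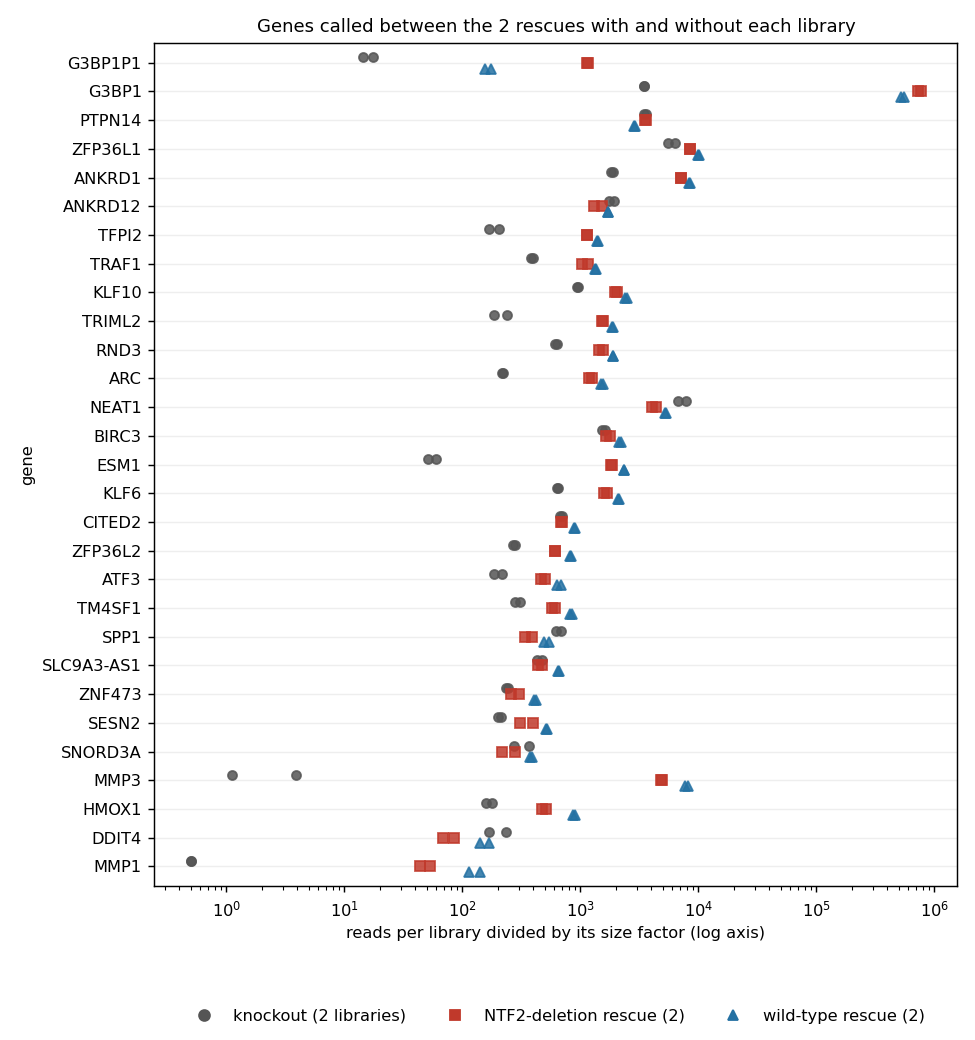
Normalised reads (log axis) in the 2 knockout (grey circles), 2 NTF2-deletion rescue (red squares) and 2 wild-type rescue (blue triangles) libraries for the 29 genes that limma called between the rescues with all libraries and without each. MMP1, with no knockout read, is drawn at 0.5. In 26 genes the squares lie below the triangles. The limma differences of these genes, fitted after scaling the rescue libraries anew, had sizes of 0.28 to 1.42 on the log2 scale.

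The first experiment also set a G3BP1 rescue against a knockout, with its own libraries and full-length G3BP1. There, 8659 of 22945 genes (37.7%) were called after the same centring, with the sign turned to rescue over knockout, 18.8% higher and 19.0% lower. Of the 5696 genes called in both experiments, 5111 (89.7%) had the same direction, 2300 higher in both and 2811 lower in both. These 5111 were 59.3% of the 8617 called here that were tested there, and 60.3% of the 8473 called there that were tested here. Over all 20527 genes tested in both, 71.9% had the same sign. Across the 10805 genes with a base mean of 100 or more in both tables, the Pearson correlation of the centred fold changes was 0.682, and genes are not independent replicates. The wild-type cells of that experiment, set against its knockout, called 9734 of 25724 genes (37.8%). Of the 5299 genes called there and here, 3245 (61.2%) had the same direction, 1321 higher and 1924 lower in both. Over all 20774 genes tested in both, 55.5% had the same sign, and the Pearson correlation over 10795 genes was 0.225. Neither comparison of the first experiment shares a library with the one described here, but both use its knockout libraries, and the difference between the shares was not tested. Several of the largest changes were smaller there: G3BP1 stood at 0.64 there and 7.58 here, MMP3 at 4.80 and 9.17, COL3A1 at -2.88 and -4.49 and TGFB2 at -1.52 and -3.73. The shrinkage differs between tables, so sizes are not on one scale. For G3BP1 the standard errors were 0.04 there and 0.05 here, and its message rose far less over the knockout there. The 2 experiments were thus not alike in G3BP1 RNA, and its part in the other differences was not tested.

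Ribosome biogenesis, translation factor and chaperone genes were higher in both experiments and MHC class I genes lower, with first-experiment medians of 0.41, 0.37, 0.21 and -0.56. Interferon genes had a median of -0.43 there, with 18 of 37 called lower and 3 higher. Other lists differed. Mitotic genes, of which 25 of 35 were lower here, were higher in 23 and lower in 2 there. Of 33 matrix genes, 11 were higher and 14 lower there, with a median of -0.05, and COL1A1 and FN1 had the opposite sign (1.59 and 1.89 there, -1.62 and -1.06 here). Of 25 p53 targets, 16 were higher and 4 lower there. Of 27 immediate-early genes tested there, 10 were higher and 4 lower, with a median of -0.04. MMP9 stood at -0.52 there and 2.01 here, TIMP2 at -0.05 and -2.24, SMAD6 at -0.18 and -2.83 and IGFBP4 at 0.38 and -1.97. The difference between the experiments was not tested for these genes and lists.

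**Figure D5:**
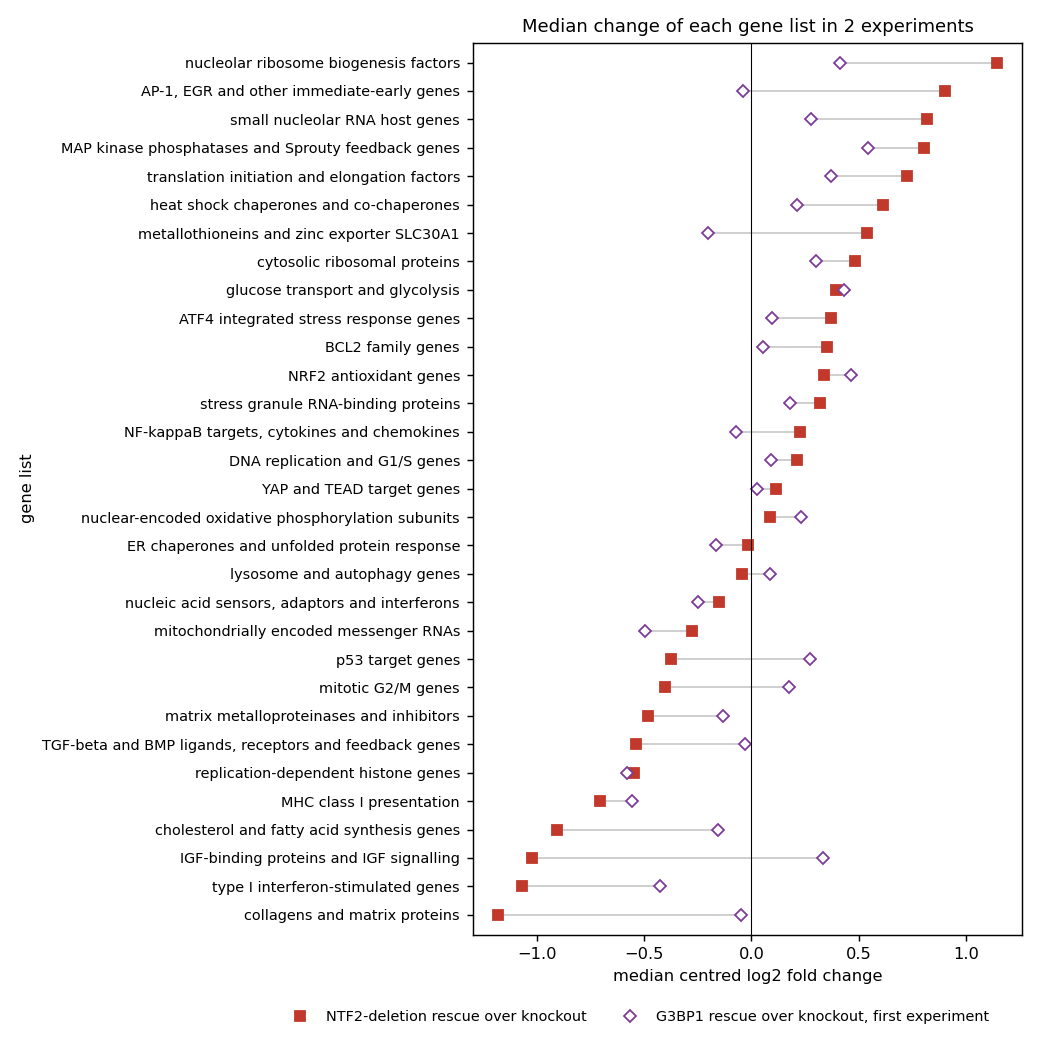
Median centred log2 fold change of each gene list in the NTF2-deletion rescue over knockout (red squares) and in the G3BP1 rescue over knockout of the first experiment (open purple diamonds). Ribosome biogenesis (1.15 and 0.41) and interferon genes (-1.07 and -0.43) keep their side, and mitotic genes (-0.40 and 0.17) change it.

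Whether RNAs that associate with G3BP1 changed was read from the authors' deposited table of RIP-seq (immunoprecipitate of FLAG-tagged G3BP1 over input in 293 cells, 3 libraries a group). Both of its groups had 1 ug/mL tetracycline for 24 h. Of 10488 genes with a base mean of 100 or more that were tested in both, 2167 were called at least 1 higher (log2) in the immunoprecipitate and 2812 at least 1 lower in the authors' deposited table. Of the 2167, 39.5% were higher and 22.2% lower in the NTF2-deletion rescue, with a median centred change of 0.20. Of the 2812, 23.0% were higher and 39.6% lower, with a median of -0.15. The same shares over all 10488 genes were 30.7% and 30.5%. Across these genes the Spearman correlation between the 2 fold changes was 0.187. Gene length moved with the RIP groups, with medians of 13.8 kb and 79.0 kb, and its part in the difference was not tested.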

How the data were processed

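PolyA RNA of U2OS cells was sequenced with strand-preserving libraries, per the labels' protocols. The submitters' processing notes name STAR and DESeq2 (2.11.40.6). The genome build, the annotation and the use of strand in counting are not given in the sources used here. Each deposited table gives, per gene and made by the authors, a base mean (a signal in normalised reads over both groups), a log2 fold change and its standard error, a Wald statistic (a score), a p-value and an adjusted p-value. The deposited fold changes are shrunk. Rows of unassigned reads (unmapped, multimapping, outside features, ambiguous) were left out of all tests, at 39.2% to 43.6% of a library. Of 61541 IDs, 61369 matched the name table and 42045 had a symbol.

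The median fold change of genes with a base mean of 100 or more was subtracted, the result divided by the deposited standard error and tested two-sided against a normal distribution. P-values were adjusted by Benjamini-Hochberg over the 20911 genes with a deposited adjusted p and called under 0.05. Differences between rescues used the summed squared errors over genes with a base mean of 10 or more in both tables. Whole reads were solved from the 15-digit base means of 7 tables and 12 libraries for all 38909 genes with a read. Size factors recomputed from them by the median of ratios equalled those used in the recovery. Of a gene's 2 recovered reads per group, which replicate each belongs to is not known. The mean squared standardised difference between libraries of a group was 3.58 in the knockout and 3.56 in the rescue, where read sampling alone gives about 1. The recovered reads were fitted with limma 3.58.1 (R 4.3.3) on log2(normalised reads + 0.5) over genes with a mean of 10 or more. Both the recovery and the tests were checked on simulated data. For the centred and the difference test, errors were drawn at the deposited standard errors and independently between tables. That checks the working of these tests and not their error rates in these data. Promoters are from RefSeq (GRCh38.p14).

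Named genes were G3BP1, G3BP2, the 10 highest and 10 lowest centred changes among called genes with a symbol and a base mean of 100 or more, up to 4 such members of each of 31 lists with the largest changes, and members whose role defines a list. Other list members given by value, the 29 genes that differed between rescues and the motifs were chosen after values were seen. The groups, gene lists and rule were chosen with earlier results of these data known. Some genes are not reported here. Reads of pseudogenes, paralogues and antisense pairs are uncertain.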

Additional observations from a re-analysis of the deposited data

Results flagged for a closer look

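The difference between the effects of the NTF2-deletion and the wild-type rescue, each over the same knockout libraries, passed its test in 3 genes. That test counts the error of the shared knockout libraries in both effects and is therefore too strict. For G3BP1 it was 0.45 on the centred log2 scale (SE 0.06, adjusted p 4.39e-09), with both NTF2-deletion libraries above both wild-type libraries. For its pseudogene G3BP1P1 it was 2.77 (SE 0.43, adjusted p 9.87e-07), with 1138 and 1160.3 against 175 and 156 normalised reads. For the pseudogene RHPN2P1 it was 3.56 (SE 0.77, adjusted p 0.0201), although its normalised reads were 106 and 122 in the knockout, 6.49 and 0 in the NTF2-deletion rescue and 0 and 0.990 in the wild-type rescue, near 0 in both rescues. Its shrunk, centred change was -1.45 in the NTF2-deletion rescue and -5.01 in the wild-type rescue. As a centred ratio of mean normalised reads, the NTF2-deletion change was -5.30. The 3.56 therefore does not stand for such a difference in reads. Unmapped reads, which no comparison used, reached at least 10.0% in each NTF2-deletion rescue library, above the 6.54% and 6.45% of the knockout libraries.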

How the results depend on the processing

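Counts of called genes stayed within 1.5 times of 3575 higher and 5077 lower under 12 of 14 alternatives, with 2798 to 4764 higher and 3489 to 6477 lower. Centring on genes with a base mean of 1000 or more gave 2798 and 6317, and no centring 4764 and 3918. A minimum change of 1 left 899 and 2846. Dividing the statistics by their robust spread of 2.49, chosen after seeing the data, left 1100 and 1297. The cause was not tested. limma without 1 library each, where a lone library is assumed to vary like the others, gave 4129 to 4219 higher and 5625 to 5896 lower. Each of 137 genes named by the rule kept its direction under all 14 alternatives. IFI16 was no longer called with the higher centre or at an adjusted p under 0.01, 33 genes with divided statistics, and 38 fell under the minimum change. Uncentred, the medians of nucleic acid sensors and of lysosome and unfolded protein response genes turned from negative to positive. Between rescues, 3 genes became 1 when a base mean of 100 or more was required in both tables, since G3BP1P1 and RHPN2P1 lie below it in at least 1 table, and 377 with limma (50 to 688 without 1 library each, chosen after seeing the data). The share with the same direction in the first experiment was 89.7%, and 93.1% where both changes reached 1. No paired analysis was possible because the recovered reads carry no replicate numbers. Depth limits weak genes: the smallest genes tested had a few reads a library, and 40630 IDs were not tested.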

Other observations

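The remaining lists had smaller or mixed changes. Messages encoded by the mitochondrial genome were lower in 6 of 13 cases and higher in 2 (median -0.28). MT-ND5, a subunit of complex I, went from 81443 and 76794 to 60925 and 56308 normalised reads and MT-CO3, a subunit of cytochrome oxidase, from 107964 and 98104 to 80762 and 73670.5. MT-ND6, the one message of this list read from the other strand of that genome, went the other way, from 4539 and 5155 to 7091 and 8113. Nuclear-encoded subunits of oxidative phosphorylation were higher in 15 of 55 cases and lower in 1 (median 0.09, which the centre from genes of base mean 1000 or more turns negative), with SDHB and SDHD of complex II at 0.93 and 0.75. Of the 10808 genes with a base mean of 100 or more, 3302 were higher, a share no smaller than that of these subunits.

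Lysosome and autophagy genes were higher in 8 and lower in 8 of 33 cases (median -0.04, and 0.12 without centring). The autophagy receptor SQSTM1 rose from 3552 and 3878 to 7457 and 7264 normalised reads and the receptor OPTN fell from 487 and 597 to 243 and 277. Histone genes whose messages are normally made without a poly(A) tail were lower in 8 of 26 tested cases and higher in 0 (median -0.55). Over all tested genes 24.3% were lower and 17.1% higher, so the share lower is near that of all genes. PolyA RNA was sequenced, so such messages are read only where they carry a tail. H2BC21 went from 1151 and 1185 to 675 and 624. Many histone genes are close copies of one another, which leaves the division of reads among them uncertain.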
